A study of Mus musculus with 19 samples.

Results

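Proteases of the mouse prostate were taken as every gene with a single annotated symbol that begins with Klk, Prss, Tmprss or Mmp followed by a digit, together with St14 and Hpn, and each gene was read from its probe set with the highest mean over all arrays. The rule found 83 genes among 18193 with a single symbol, measured by 115 probe sets. They were 20 kallikreins, 31 PRSS serine proteases, 14 membrane-anchored serine proteases (the TMPRSS genes with St14 and Hpn) and 18 matrix metalloproteinases. Values came from 19 one-colour 3′ expression arrays, with total RNA of 1 prostate lobe on each. All mice were C57BL/6J, without any transgene or deletion named in the labels, and were 8 weeks old when 12 weeks on their diet began. The groups were ventral prostate (VP) on the control diet with 5 arrays, VP on the high fat diet (HFD) with 5, dorsolateral prostate (DLP) on the control diet with 5 and DLP on the high fat diet with 4. Each diet was fed to 5 mice, and which array came from which mouse is not labelled, so p-values measure only the spread between these samples. The anterior lobe is also named there and was not analysed here.

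Secreted and membrane-bound proteases shape the fluid that prostate glands release and the junctions and matrix around the glands. Kallikreins are secreted serine proteases encoded in 1 large gene cluster, and a human member of that cluster, prostate specific antigen, liquefies semen. Membrane-anchored serine proteases act at the epithelial surface, where matriptase (St14) and prostasin (Prss8) act in 1 cascade that the Kunitz inhibitors Spint1 and Spint2 restrain. Matrix metalloproteinases are zinc enzymes that cut matrix and cell surface proteins and are held in check by the Timp inhibitors.

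Levels are given as log2 of the array signal, and differences as differences of these log2 values, so that 1 is a 2-fold difference. The deposited values were log10 values, by inference, and were identical in rank distribution on all 19 arrays, with a median of 1.85 on the log2 scale on each. A shift shared by most genes is therefore not visible. HFD VP 3 and control VP 4 correlated least with the rest of their groups, with r of 0.978 and 0.983 against 0.986 to 0.995 on the other 17 arrays, and counts without both are given beside the lobe results. A typical gene varied more in VP, with a median SD of 0.176 on the control diet and 0.172 on HFD, than in DLP, with 0.133 and 0.116. As a check of the tissue, Pbsn (probasin) read 7.40 to 11.98 in VP and 12.39 to 12.73 in DLP. Of 7 luminal markers with a single-symbol probe set, all but Tgm4 lay above the array median on all 19 arrays. Tgm4 had means of 1.73 in control VP and 1.82 in HFD VP, and all 7 passed the filter on low values.

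Of the 83 proteases, 26 passed that filter, which asked for a value above the median of the array on at least 4 arrays. They were 2 kallikreins, 8 PRSS genes, 6 membrane-anchored proteases and 10 metalloproteinases. Another 57 did not pass, and 48 of these lay below the median on every array. Group means of these 57 ran from 0.11 to 1.86. Among them were 18 kallikreins, including Klk4 to Klk13, 23 PRSS genes, 8 TMPRSS genes and 8 metalloproteinases, namely Mmp1a, Mmp1b, Mmp3, Mmp8, Mmp10, Mmp11, Mmp13 and Mmp19. Prss28 lay above the median on 3 arrays, control DLP 2, 3 and 4, at 2.83, 2.91 and 2.25, against 0.56 and 0.61 on control DLP 1 and 5. A value below the median does not show that a gene was silent. Above the median on all 19 arrays were 12 genes, namely Prss8, Prss16, Prss23, Prss36, Prss53, St14, Tmprss2, Tmprss13, Mmp2, Mmp7, Mmp14 and Mmp17.

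**Figure D1:**
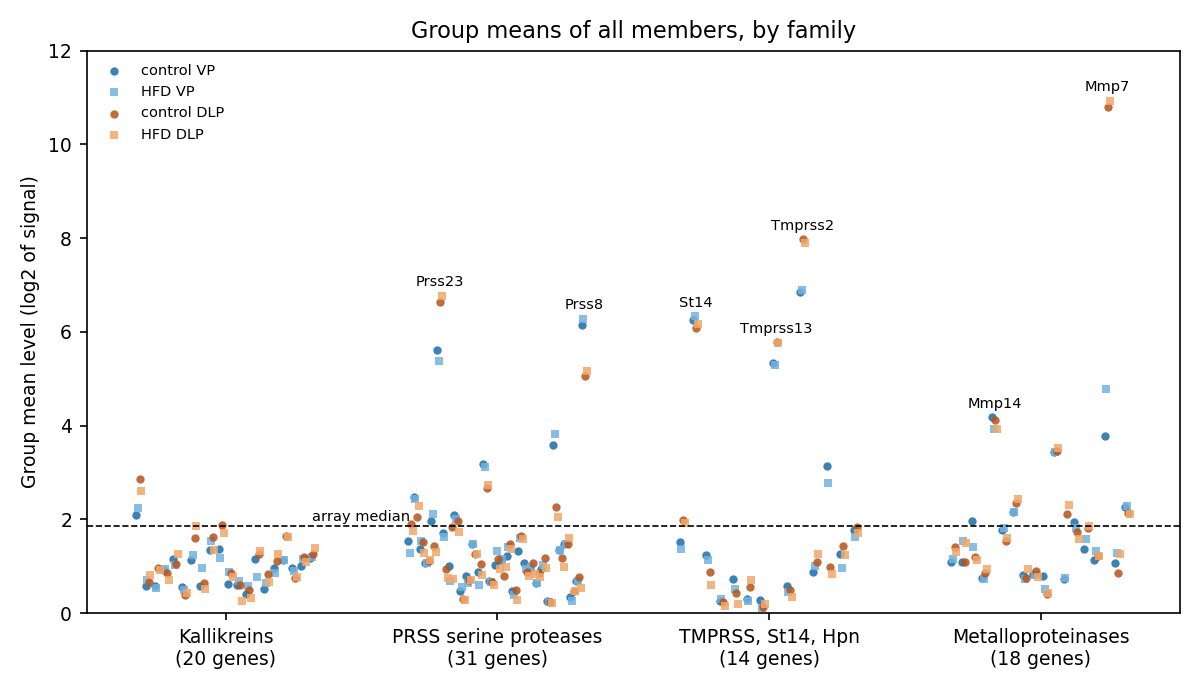
Group mean level of all 83 proteases (vertical axis, log2 of signal), sorted by family along the horizontal axis, with 1 symbol per group and gene and the dashed line at the array median of 1.85. Most kallikreins sit below the line in all 4 groups, and Mmp7 stands at 10.79 and 10.94 in the DLP groups against 3.79 and 4.79 in the VP groups.

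The first comparison asked how the proteases differ between the lobes. On the control diet 9 of the 26 tested proteases were higher in DLP, 6 were lower and 11 were not called (limma, Benjamini-Hochberg adjusted p under 0.05 over 11727 genes). On the high fat diet 9 were higher, 5 were lower and 12 were not called. The means compared there came from other arrays, but both tests used a spread per gene pooled over all 19 arrays. The lobes differ widely in gene expression: 55.0% of all tested genes were called on the control diet (28.2% higher and 26.8% lower) and 52.9% on the high fat diet (26.8% and 26.1%). The proteases' share was thus near the background in both cases. Their median difference was -0.03 on the control diet and 0.04 on HFD, against 0.00 over all genes in both. Groups did not overlap for 6 proteases above and 6 below on the control diet, where 20.2% and 19.1% of all genes did not overlap, and for 8 above and 4 below on HFD, where the shares were 23.0% and 21.5%.

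Calls shared by both diets came to 12. Mmp7, Mmp20, Tmprss2, Prss23, Tmprss13, Klk1b24 and Prss12 were higher in DLP, and Tmprss4, Prss53, Prss8, Prss22 and Prss36 were lower. Called on the control diet alone were Klk1, Mmp24 and Prss16, and on HFD alone Hpn and Mmp17. No protease passed the test of a change in lobe difference between the diets (limma, smallest adjusted p 0.602). Mmp20, Mmp24, Klk1b24 and Prss12 passed the filter through DLP arrays only. Tmprss4, Prss22 and the uncalled Mmp16 passed through VP arrays only. In VP, Hpn lay above the median on control VP 3 and HFD VP 4 alone, so it passed only with its DLP arrays. A difference in all of these was favoured by the filter. Without the filter, 10 of all 83 proteases were higher and 7 were lower on each diet, against 37.3% and 34.8% of all 18193 genes called either way. Without control VP 4 and HFD VP 3 the counts were 9 higher and 7 lower on the control diet and 9 and 5 on HFD. In these whole lobes, fewer cells of a type and less RNA per cell cannot be told apart.

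**Figure D2:**
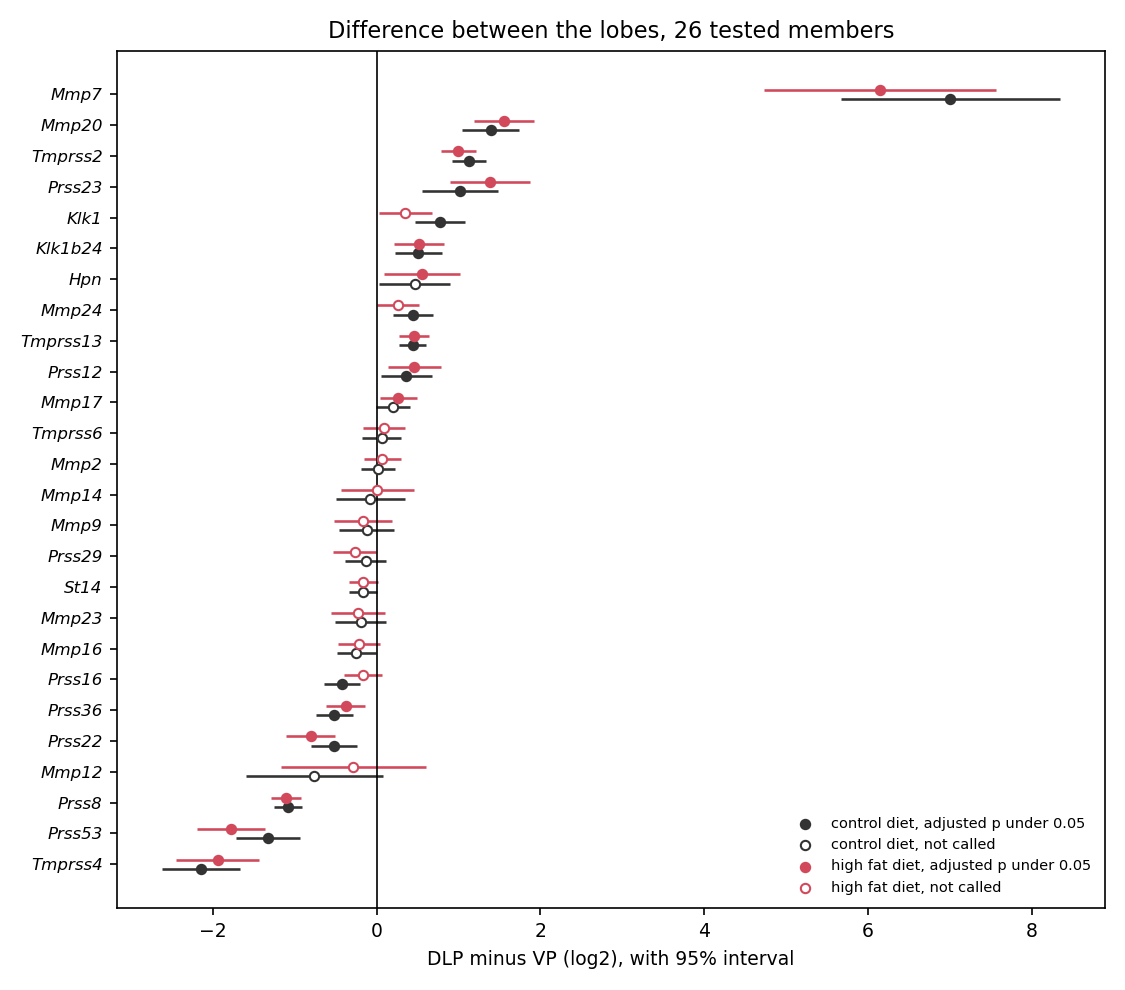
DLP minus VP difference (horizontal axis, log2) of the 26 tested proteases, with 95% intervals, on the control diet (black) and the high fat diet (red). Filled points passed limma's adjusted p of 0.05. Mmp7 lies at 7.01 and 6.15, and Tmprss4, Prss53 and Prss8 lie below -1 on both diets.

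Mmp7, matrilysin, is a small metalloproteinase that glandular epithelia secrete and that cuts E-cadherin and other surface proteins. Control VP arrays 1 to 5 read 4.41, 2.66, 4.06, 2.95 and 4.86, and HFD VP arrays 4.41, 2.59, 5.85, 7.68 and 3.41. Control DLP arrays read 10.55, 10.73, 10.74, 10.90 and 11.06, and HFD DLP arrays 11.00, 10.84, 11.03 and 10.89. The DLP arrays lay close together and well above every VP array, whereas the VP arrays were spread out, with HFD VP 3 and 4 highest. The difference was 7.01 ± 0.64 (SE), or 129-fold, on the control diet (limma, adjusted p 1.65e-08) and 6.15 ± 0.68, or 71.0-fold, on HFD (adjusted p 2.47e-07). Some genes very high in DLP were chosen here after their values were seen, so their low VP values are not a separate finding. Tgm4, the prostate transglutaminase, read 1.36 to 2.37, Pate14 0.14 to 2.41, Glb1l3 0.11 to 0.98 and Fcgbp 1.03 to 2.90 on the 10 VP arrays. On HFD VP 4, where Mmp7 reached 7.68, they read 1.91, 1.03, 0.98 and 2.90, the last 2 of which were the highest VP values of their genes. The secretory genes Pbsn and Msmb were low on that array, at 7.97 and 10.19, each the second lowest of the 10. Both were lowest on control VP 2, at 7.40 and 9.62, where Mmp7 read 2.66. They were highest on HFD VP 3, at 11.98 and 12.92, where Mmp7 read 5.85. The part of any of these genes in the Mmp7 values was not tested.

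Mmp20, enamelysin, is known from tooth enamel and neighbours Mmp7 in the genome. Its control VP arrays read 1.11, 0.98, 0.14, 0.44 and 0.98, and its HFD VP arrays 0.77, 0.96, 0.49, 0.50 and 1.07. Control DLP arrays stood at 2.19, 2.01, 2.13, 2.11 and 2.17, and HFD DLP arrays at 2.09, 2.27, 2.48 and 2.42. Every DLP array was above the array median and every VP array was below it. The difference was 1.39 ± 0.17 (SE) on the control diet (limma, adjusted p 6.61e-07) and 1.56 ± 0.18 on HFD (adjusted p 3.44e-07). At these low levels its size rests on the offset inside the logarithm, and an offset of 4 in place of 1 gave 0.65 and 0.76.

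Both metalloproteinases are read from the same strand of chromosome 9. The 150 bases before each annotated start are shown because these 2 neighbours were higher in the same lobe. Sequences are from RefSeq on GRCm38.p6, plus strand, at chr9:7691940-7692089 for Mmp7 and chr9:7628081-7628230 for Mmp20, written 5′ to 3′, with matches to an AP-1 type site (TGANTCA, either strand) and a TATA box (TATAAA, gene strand) in capitals.
Mmp7: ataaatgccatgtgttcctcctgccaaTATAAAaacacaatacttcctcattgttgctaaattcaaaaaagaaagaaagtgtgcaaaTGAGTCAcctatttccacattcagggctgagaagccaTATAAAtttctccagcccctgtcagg
Mmp20: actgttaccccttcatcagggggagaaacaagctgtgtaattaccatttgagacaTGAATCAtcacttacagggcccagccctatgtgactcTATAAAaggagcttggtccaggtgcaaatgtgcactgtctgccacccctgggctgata
Mmp7 held the AP-1 type match TGAGTCA 63 bases before its start and TATAAA 26 and 123 bases before it. Mmp20 held TGAATCA 95 bases and TATAAA 58 bases before its start. Over windows from 250 bases before to 50 after the start, 7.93% of 27025 RefSeq promoters held TGANTCA and 8.88% held TATAAA. Of the 65 proteases with a promoter in the table, 18.5% held the first and 16.9% the second. The steroid receptor motif AGAACA (either strand) was in 12 of these 65 and in 5139 of the 27025. Such a match is a description of the letters and not evidence of binding.

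Mmp24, a membrane-type metalloproteinase, was higher in DLP on the control diet. Its 5 control VP arrays read 1.40, 1.67, 1.52, 1.19 and 1.03 and its control DLP arrays 1.93, 1.77, 1.63, 1.88 and 1.83, with the highest VP array just above the lowest DLP array. The difference was 0.44 ± 0.12 (SE) (limma, adjusted p 0.00301), against 0.26 ± 0.12 on HFD (adjusted p 0.0844). Its other probe sets differed by 0.03 and 0.29 and lay below the median on every array. Mmp17, a membrane-type enzyme held by a lipid anchor, was called on HFD alone, where VP arrays read 2.22, 2.22, 2.15, 2.01 and 2.20 and DLP arrays 2.60, 2.26, 2.31 and 2.53. The groups did not overlap, and the difference was 0.27 ± 0.11 (SE) (limma, adjusted p 0.0431), against 0.20 ± 0.10 on the control diet (adjusted p 0.1). The HFD call was lost without any 1 of HFD VP 1, 3, 4 or 5 or HFD DLP 1 or 4, with an adjusted p of at most 0.148, and without the filter.

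No lobe difference was called for the gelatinases or their activator on either diet. Mmp2, a gelatinase of connective tissue cells, read 3.16 to 3.60 in control VP and 3.23 to 3.59 in control DLP, and the 95% interval of the difference ran from -0.20 to 0.23. Mmp14, the membrane-type enzyme that activates pro-Mmp2, read 3.89 to 4.52 in control VP and 3.79 to 4.42 in control DLP, with an interval from -0.50 to 0.35. For Mmp9, the gelatinase of leukocytes, the ranges were 1.89 to 2.49 and 1.77 to 2.77, and the interval was -0.46 to 0.21. On HFD the differences were 0.07 for Mmp2, 0.01 for Mmp14 and -0.17 for Mmp9, with limma's adjusted p of 0.602, 0.976 and 0.426. The sign of the Mmp2 and Mmp14 differences on the control diet changed with the probe sets used and with single arrays left out. A second Mmp14 probe set differed by 0.35 and a second Mmp2 probe set by -0.18.

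Mmp12, the macrophage elastase, was uneven within groups. Control VP arrays read 2.64, 1.55, 1.79, 2.64 and 1.21, HFD VP arrays 1.02, 0.95, 3.29, 0.38 and 1.42, control DLP arrays 1.96, 1.03, 0.89, 1.20 and 0.97, and HFD DLP arrays 1.15, 1.44, 0.98 and 0.94. It was highest on control VP 1 and 4 and HFD VP 3. The macrophage receptor Csf1r read 5.45, 5.41 and 6.10 on those arrays, and 4.19 to 5.63 on the other VP arrays. Of 6 macrophage markers 5 passed the filter, and Mrc1 and Cd68 were lower in control DLP by limma's test (-0.79 and -0.65, both with adjusted p 0.0164). Csf1r, Adgre1 and Cd163 differed by -0.576, -0.255 and 0.065 without passing. On HFD Mrc1 and Adgre1 were lower in DLP (limma, adjusted p 0.0204 and 0.035), and Cd68 did not pass (adjusted p 0.0938). The summed macrophage signal, on a linear scale, was 37.0 to 86.6 in control VP, 36.8 to 114 in HFD VP, 29.3 to 62.1 in control DLP and 33.0 to 42.3 in HFD DLP, and its part in the Mmp12 values was not tested. The Mmp12 lobe difference was -0.76 ± 0.40 (SE) on the control diet (limma, adjusted p 0.113) and -0.29 ± 0.42 on HFD (adjusted p 0.598). Mmp16 and Mmp23, a membrane-type and an atypical metalloproteinase, differed by -0.25 and -0.20 on the control diet without passing.

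Tmprss2, an androgen-responsive membrane serine protease of prostate epithelium, was higher in DLP on both diets. Control VP arrays read 6.87, 6.92, 6.93, 6.94 and 6.61, and HFD VP arrays 6.69, 6.89, 7.26, 6.99 and 6.65. Control DLP arrays read 8.05, 7.81, 7.95, 8.05 and 8.06, and HFD DLP arrays 7.94, 7.83, 7.88 and 7.93. No VP array reached the lowest DLP array. The difference was 1.13 ± 0.10 (SE), or 2.19-fold, on the control diet (limma, adjusted p 6.84e-09) and 1.00 ± 0.10, or 2.00-fold, on HFD (adjusted p 9.85e-08). All 4 of its probe sets were higher in DLP, by 1.13, 1.33, 1.07 and 0.64 on the control diet.

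Tmprss13, a membrane serine protease of epithelia, showed a smaller difference in the same direction. Its VP arrays read 5.40, 5.22, 5.49, 5.50 and 5.09 on the control diet and 5.21, 5.36, 5.48, 5.17 and 5.28 on HFD. Its DLP arrays read 5.80, 5.75, 5.91, 5.64 and 5.80 on the control diet and 5.68, 5.73, 5.80 and 5.80 on HFD. The lobes did not overlap, and the difference was 0.44 ± 0.08 (SE) on the control diet (limma, adjusted p 0.000137) and 0.46 ± 0.09 on HFD (adjusted p 0.000184).

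Tmprss4, another epithelial membrane serine protease, went the other way. It read 2.60, 3.50, 3.34, 3.49 and 2.75 in control VP and 2.79, 3.21, 2.56, 2.59 and 2.73 in HFD VP. In DLP it read 0.48, 1.07, 0.91, 1.53 and 0.99 on the control diet and 0.60, 1.56, 0.82 and 0.37 on HFD, all below the array median. The difference was -2.14 ± 0.23 (SE) on the control diet (limma, adjusted p 1.48e-07) and -1.94 ± 0.24 on HFD (adjusted p 1.31e-06). With an offset of 4 it was -1.24 and -1.03, so the size is uncertain.

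No lobe difference was called for matriptase itself, St14. It read 6.34, 6.28, 6.42, 6.20 and 6.09 in control VP and 5.98, 6.19, 6.19, 5.99 and 6.12 in control DLP, with 6.19 to 6.61 in HFD VP and 6.11 to 6.24 in HFD DLP. The groups overlapped, and the difference was -0.17 ± 0.08 (SE) on the control diet, with a 95% interval from -0.34 to 0.00 (limma, adjusted p 0.087), and -0.16 ± 0.09 on HFD (adjusted p 0.128). The control diet difference passed with array weights, without control VP 5, without HFD VP 3, and without both control VP 4 and HFD VP 3 (limma, adjusted p 0.0368 in the last of these). Hepsin (Hpn), a serine protease often raised in human prostate cancer, read 1.66, 1.34, 1.86, 1.13 and 1.57 in control VP, 0.97, 0.69, 1.48, 2.05 and 1.62 in HFD VP, 2.26, 2.14, 2.00, 1.78 and 1.71 in control DLP and 2.16, 1.61, 2.06 and 1.84 in HFD DLP. The lobes overlapped on both diets. Its difference passed on HFD at 0.55 ± 0.22 (SE) (limma, adjusted p 0.0402) and not on the control diet at 0.47 ± 0.21 (adjusted p 0.0637). The HFD call was lost without HFD VP 1 or 2 or HFD DLP 1, 3 or 4, with an adjusted p of at most 0.123, and also without the filter or with the groups compared fitted alone. The control diet value passed without control VP 3, HFD VP 2, HFD VP 4 or control DLP 5, with an offset of 4 and with the groups compared fitted alone. Tmprss6, the liver regulator of hepcidin, differed by 0.06 and 0.09 without passing.

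Prostasin (Prss8), the partner of matriptase held to the membrane by a lipid anchor, was lower in DLP. Control VP arrays read 6.35, 6.22, 6.12, 6.00 and 6.00, and HFD VP arrays 6.29, 6.34, 6.03, 6.36 and 6.38. Control DLP arrays read 5.03, 5.07, 5.11, 4.97 and 5.08, and HFD DLP arrays 5.04, 5.13, 5.35 and 5.18. Every DLP array lay below every VP array. The difference was -1.09 ± 0.08 (SE), or 2.12-fold lower, on the control diet (limma, adjusted p 9.12e-10) and -1.11 ± 0.09, or 2.15-fold lower, on HFD (adjusted p 1.68e-09). Spint1, an inhibitor of both matriptase and prostasin, was also lower in DLP, at -0.82 ± 0.08 (SE) (limma, adjusted p 1.63e-08) and -0.68 ± 0.08 on HFD (adjusted p 5.46e-07). Spint2, the related inhibitor, differed by -0.07 and 0.16 without passing.

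Prss53 and Prss36 are polyserases, with several protease domains in 1 chain, and flank Prss8 on chromosome 7. Prss53 read 3.37, 3.81, 3.29, 3.87 and 3.60 in control VP, 3.93, 4.58, 3.08, 3.50 and 4.04 in HFD VP, 2.27, 2.35, 2.20, 2.19 and 2.29 in control DLP and 1.93, 2.17, 2.12 and 1.98 in HFD DLP. The lobes did not overlap, and HFD VP was the most spread of the 4 groups. The difference was -1.33 ± 0.19 (SE) on the control diet (limma, adjusted p 6.48e-06) and -1.78 ± 0.20 on HFD (adjusted p 3.26e-07). Prss36 read 3.49, 3.33, 2.99, 3.17 and 2.99 in control VP against 2.78, 2.75, 2.80, 2.60 and 2.46 in control DLP, with no overlap. On HFD it read 3.25, 3.15, 3.04, 2.86 and 3.25 in VP against 2.63, 2.70, 2.72 and 2.90 in DLP, with 1 VP array below the highest DLP array. Its difference was -0.51 ± 0.11 (SE) on the control diet (limma, adjusted p 0.00041) and -0.38 ± 0.11 on HFD (adjusted p 0.00842).

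The promoters of both polyserases are shown as those of neighbours that were lower together. They are RefSeq sequences of the 150 bases before the start on GRCm38.p6, minus strand, at chr7:127890971-127891120 for Prss53 and chr7:127946726-127946875 for Prss36, written 5′ to 3′ along the gene with any TGANTCA or TATAAA match in capitals.
Prss53: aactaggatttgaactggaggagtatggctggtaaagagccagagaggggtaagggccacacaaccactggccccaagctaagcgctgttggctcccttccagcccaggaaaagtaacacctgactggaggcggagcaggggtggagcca
Prss36: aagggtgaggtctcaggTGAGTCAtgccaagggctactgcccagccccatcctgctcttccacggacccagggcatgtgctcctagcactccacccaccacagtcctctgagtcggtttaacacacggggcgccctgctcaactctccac
Prss36 held TGAGTCA 133 bases before its start, and these letters were not found in the Prss53 window. Prss8, Tmprss4 and Tmprss13 are not shown.

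Prss22, a tryptase of airway and other epithelia, was lower in DLP as well. It read 2.06, 1.78, 1.65, 2.25 and 2.07 in control VP against 1.62, 1.46, 1.41, 1.47 and 1.23 in control DLP, and 1.75, 2.21, 2.32, 2.26 and 2.06 in HFD VP against 1.09, 1.55, 1.40 and 1.21 in HFD DLP. Neither pair of groups overlapped. The difference was -0.52 ± 0.13 (SE) on the control diet (limma, adjusted p 0.00257) and -0.81 ± 0.14 on HFD (adjusted p 7.9e-05). Prss16, a thymic serine protease, read 2.47, 2.26, 2.54, 2.71 and 2.41 in control VP and 2.07, 1.97, 2.12, 2.02 and 2.12 in control DLP. These groups did not overlap and differed by -0.42 ± 0.10 (SE) (limma, adjusted p 0.00215), whereas on HFD the difference was -0.16 ± 0.11 (adjusted p 0.233) and the groups overlapped. Prss29, a protease known from the uterus, differed by -0.13 and -0.26 without passing.

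Prss23, a secreted serine protease found in many tissues, was higher in DLP. Control VP arrays read 5.91, 5.63, 5.26, 5.64 and 5.65, and HFD VP arrays 5.24, 4.48, 5.84, 6.26 and 5.11. Control DLP arrays read 6.48, 6.84, 6.53, 6.72 and 6.62, and HFD DLP arrays 6.57, 6.78, 6.74 and 7.02. The DLP arrays lay above all VP arrays, and HFD VP ranged most. The difference was 1.02 ± 0.22 (SE), or 2.03-fold, on the control diet (limma, adjusted p 0.000602) and 1.39 ± 0.23, or 2.62-fold, on HFD (adjusted p 4.86e-05). Its other 2 probe sets were also higher in DLP, by 0.75 and 0.94 on the control diet.

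Neurotrypsin (Prss12), a protease of nerve endings that cuts agrin, was higher in DLP by a small margin. It read 1.40, 1.39, 1.55, 1.73 and 1.64 in control VP against 2.04, 1.89, 1.72, 1.64 and 2.24 in control DLP, and 1.54, 1.61, 1.05, 1.39 and 0.82 in HFD VP against 1.69, 1.84, 1.58 and 1.87 in HFD DLP. The groups overlapped on both diets. The difference was 0.36 ± 0.15 (SE) on the control diet (limma, adjusted p 0.043) and 0.46 ± 0.16 on HFD (adjusted p 0.0179). The control diet call was lost without control VP 1, 2 or 3 or control DLP 1, 2 or 5, with an adjusted p of at most 0.125, and with an offset of 0.5 or no filter, and the HFD call without HFD VP 5 or HFD DLP 4, with at most 0.0565. All 5 nerve markers were higher in control DLP and 3 of 5 in HFD DLP (limma). Nefl, Nefm, Prph and Sncg had VP means below the array median, so the filter favoured a difference in them. The summed nerve signal, on a linear scale, was 5.00 to 8.90 in control VP, 5.95 to 9.11 in HFD VP, 13.2 to 162 in control DLP and 15.9 to 28.6 in HFD DLP. Their part in the Prss12 difference was not tested.

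Only 2 kallikreins could be tested. Klk1, tissue kallikrein, which releases kinins from kininogen, read 2.22, 2.39, 2.32, 1.60 and 1.93 in control VP and 2.75, 3.22, 2.83, 2.73 and 2.79 in control DLP. On HFD it read 2.33, 2.28, 2.18, 2.14 and 2.34 in VP and 2.34, 2.59, 2.48 and 3.00 in DLP. The lobes did not overlap on either diet, though on HFD the highest VP and the lowest DLP array met to within rounding. The difference was 0.77 ± 0.14 (SE) on the control diet (limma, adjusted p 0.000154) and 0.35 ± 0.15 on HFD (adjusted p 0.062). The change between diets of this lobe difference was -0.42 (limma, adjusted p 0.602). The other 3 Klk1 probe sets lay below the median on every array and differed by -0.07, -0.35 and -0.34, so the result rests on a single probe set, of a type whose probes can match other transcripts.

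Klk1b24, a member of the rodent-specific kallikrein branch, read 1.36, 1.09, 1.43, 1.23 and 1.75 in control VP against 1.62, 1.71, 1.96, 2.09 and 2.02 in control DLP. On HFD it read 1.37, 0.96, 1.44, 0.96 and 1.20 in VP against 1.90, 1.65, 1.66 and 1.62 in DLP. The groups overlapped on the control diet and not on HFD. The difference was 0.51 ± 0.14 (SE) on the control diet (limma, adjusted p 0.00366) and 0.52 ± 0.15 on HFD (adjusted p 0.00524). Near-identical copies in the kallikrein cluster can share probe sequence, so the assignment to 1 gene is uncertain. Probe sets annotated to several kallikreins at once, Klk1b26 with Egfbp2 and Klk1b9 with Klk1b22, were left out, and their highest group means were 0.66 and 1.61. Without the filter, Klk1b11 (0.47 and 0.61) and Klk6 (0.50 and 0.49) also passed as higher in DLP on the control diet and HFD, at group means near or below the array median, where size cannot be read.

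**Figure D3:**
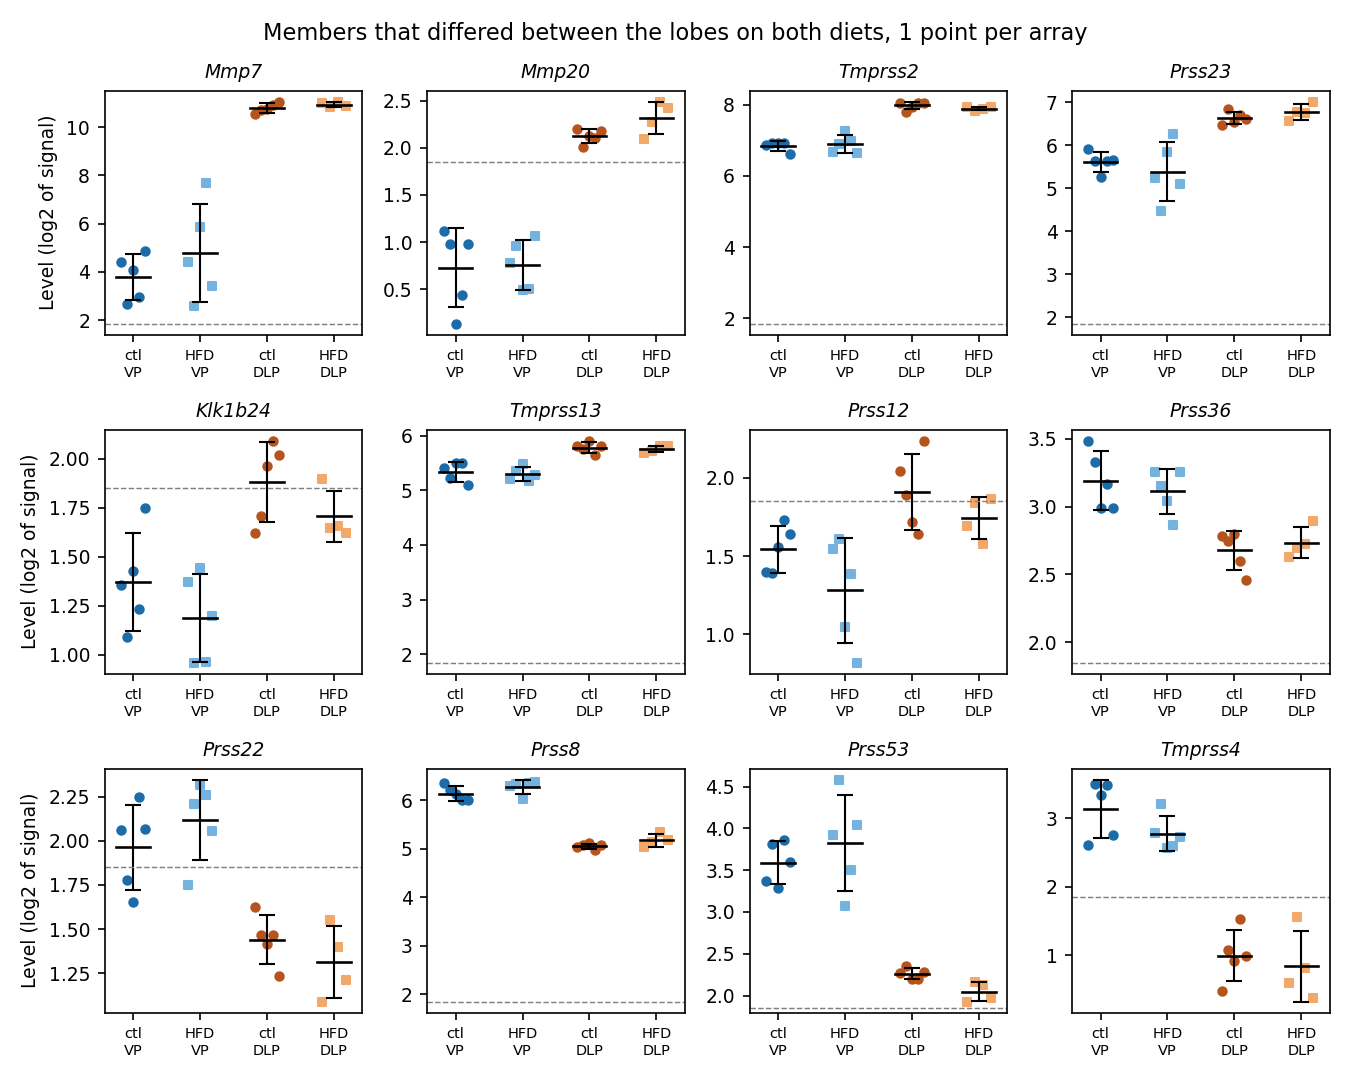
Level on each array (vertical axis, log2 of signal, scaled per panel) of the 12 proteases called in the same direction on both diets, with group means and SD as bars and the array median of 1.85 dashed. DLP arrays of Mmp7 sit between 10.55 and 11.06 and VP arrays between 2.59 and 7.68, and the order is turned for Prss8, with DLP at 4.97 to 5.35 and VP at 6.00 to 6.38.

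Position in the genome was compared for the protease clusters, using the gene order of GRCm38.p6. Prss53, Vkorc1, Bckdk, Kat8, Prss8 and Prss36 follow each other on chromosome 7, and 5 of these 6 genes were lower in DLP on the control diet, where 26.8% of all genes were. The 3 proteases, which chose the stretch, differed by -1.33, -1.09 and -0.51. Vkorc1 and Bckdk differed by -0.24 and -0.20 (limma, adjusted p 0.00461 and 0.0451, and 0.0875 for Bckdk on HFD), whereas Kat8, between them and Prss8, differed by 0.03 (limma, adjusted p 0.788). All 4 tested genes flanking the stretch were also lower on the control diet. Pycard, an inflammasome adaptor, differed by -1.09 (limma, adjusted p 4.94e-08). Stx4a, Zfp668 and Zfp646 differed by -0.30, -0.41 and -0.28 (limma, adjusted p 0.0208, 0.00172 and 0.0494), and Stx4a did not pass on HFD (adjusted p 0.0594). On chromosome 9 the metalloproteinase cluster runs from Mmp13 to Mmp7 over 10 genes, of which 9 are among the 83 proteases and 3 were tested. Mmp20 and Mmp7, at its end, were higher in DLP, as were Tmem123 and Birc2 just beyond it (0.84 and 0.69), while Birc3 and Yap1 did not pass (-0.39 and -0.15). Beyond the other end Pdgfd was lower by -1.04, and Dync2h1 and Dcun1d5 did not pass on the control diet (0.02 and 0.07). Dcun1d5 was higher in DLP on HFD, by 0.35 (limma, adjusted p 0.0172). Tmprss4 and Tmprss13 lie within a stretch of 4 genes on chromosome 9 and differed in opposite directions, by -2.14 and 0.44. In the kallikrein cluster on chromosome 7, a stretch of 25 genes from Klk13 to Klk1 held 19 of the proteases and 2 were tested.

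**Figure D4:**
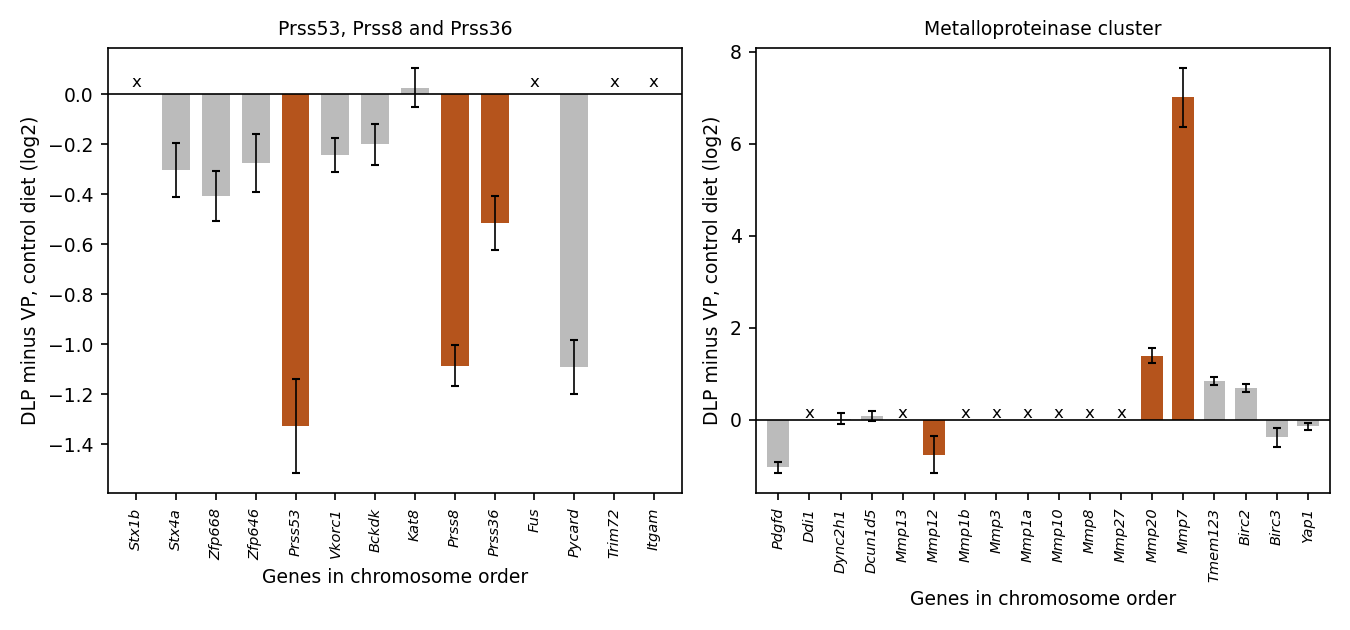
DLP minus VP difference on the control diet (vertical axis, log2, bars with SE) for genes in chromosome order around Prss8 and in the metalloproteinase cluster. Proteases of the set are in orange, other genes in grey, and x marks a gene that was not tested. Prss53, Prss8 and Prss36 fall at -1.33, -1.09 and -0.51 around Kat8 at 0.03, and Mmp20 and Mmp7 rise to 1.39 and 7.01 at the end of their cluster.

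Inhibitors of these enzymes were read beside the 28.2% of all genes called higher and the 26.8% called lower on the control diet. Of 12 Timp, Spint, Spink and Reck genes, 10 were tested on the control diet, and 2 were higher and 5 lower in DLP, with a median of -0.45 against 0.00 over all genes. Spink5, which restrains kallikreins, was lower by -6.70 ± 0.39 (SE) (limma, adjusted p 1.95e-11), Spink1, the trypsin inhibitor, by -3.72 ± 1.18 (adjusted p 0.0114) and Timp4 by -2.88 ± 0.25 (adjusted p 7.48e-09). Timp2, which also helps Mmp14 to activate pro-Mmp2, was lower by -1.77 ± 0.15 (limma, adjusted p 5.46e-09). Spink8 was higher by 3.98 ± 0.41 (limma, adjusted p 7.79e-08) and Timp3 by 0.55 ± 0.16 (adjusted p 0.006). On HFD the same list had 2 higher and 5 lower and a median of -0.28. Among 8 tested serpins and macroglobulins 1 was higher and 4 were lower on the control diet. Mug1, a plasma-type macroglobulin, was at -6.52 and Serpinb5, maspin, at 0.52 (limma, adjusted p 1.37e-08 and 0.0208). In control DLP the mean of Mug1 was 0.98, below the array median, and its difference ran from -7.035 to -5.158 over the alternative settings.

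Other protease groups held calls in both directions on the control diet, where 55.0% of all tested genes were called. Their called shares lay on both sides of that value, and whether any group departed from it was not tested. Of 13 tested secreted or membrane serine proteases outside the set, 6 were higher and 4 lower in DLP, with C1ra, a complement protease, at 4.97, Htra4 at 2.44, Masp1 at 1.94 and Dpp4, a dipeptidyl peptidase, at 1.94 (limma, largest adjusted p of these 2.93e-08). Over the alternative settings Htra4 ran from 1.33 to 2.953, Masp1 from 1.341 to 2.11 and Dpp4 from 1.436 to 2.023. Among 8 ADAM proteases 3 were higher and 1 lower, with the sheddase Adam10 at 1.39 (limma, adjusted p 2.72e-10). Adam10 differed by 0.84 with the mean of its probe sets. Cpe and Cpm, carboxypeptidases, were higher by 2.89 and 2.62 and Anpep, an aminopeptidase, was lower by -2.12 among 7 astacins and other metallopeptidases, of which 4 were higher and 2 lower. All 13 cathepsins were tested, with 4 higher, led by Ctsc at 1.16 (limma, adjusted p 3.63e-07), and 4 lower, led by Ctsl at -1.31 (adjusted p 4.8e-09). Furin and Pcsk5 were higher and Pcsk7 lower among 5 convertases (0.46, 0.39 and -0.48). Of 9 genes of the plasminogen system 2 were higher and 1, Anxa2, was lower at -0.77. Of the higher calls, that of the receptor F2rl2 at 0.28 (limma, adjusted p 0.0452), was lost in 17 of 32 alternatives, 12 of these with single arrays left out, which leaves 1 higher. Of 7 ADAMTS proteases Adamts5 was higher at 0.39 and Adamts1 lower at -0.63. On HFD the counts higher and lower were 6 and 2 for the serine proteases, 1 and 3 for the serpins, 2 and 3 for the astacins and other metallopeptidases and 1 and 2 for the plasminogen system, and as on the control diet for the convertases, ADAM and ADAMTS proteases and cathepsins.

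Cell type markers moved with the lobe as well. All 4 basal epithelial markers, 4 of 6 smooth muscle markers and all 3 tested of 8 mast cell markers were higher in control DLP, while of 7 luminal markers 2 were higher and 3 lower (limma). On HFD 2 of the 4 basal markers passed, Krt15 and Trp63 missing at 0.42 and 0.23 (limma, adjusted p 0.14 and 0.176), and the smooth muscle and mast cell counts were the same. The 3 mast cell markers had VP group means below the array median and DLP group means above it, so the filter favoured a difference in them, and the other 5 did not pass it. Summed on a linear scale, basal markers ran from 32.4 to 60.4 in control VP and 54.9 to 88.4 in control DLP, and smooth muscle markers from 1860 to 2370 and 2330 to 2660. Exocrine pancreas markers, of which 3 of 9 on the array passed the filter, summed to 23.0 to 35.5 in control VP and 17.0 to 22.4 in control DLP. Seminal vesicle markers, of which 2 of 6 passed it, summed to 2.27 to 5.68 in control VP and 3.37 to 12.1 in control DLP. On HFD they were more uneven, at 2.21 to 109 in VP and 4.49 to 34.5 in DLP. The part of these cell types in the protease differences was not tested.

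The second comparison asked whether the diet changed the proteases in VP. None of the 26 was called (limma, smallest adjusted p 0.356), none had an unadjusted p under 0.05, and all had overlapping groups. Of all genes 1.11% were called, 0.529% higher and 0.58% lower on HFD, and 1.38% and 1.19% did not overlap above and below. Without the filter none of the 83 was called, against 0.429% of all genes. The 95% interval of the diet difference lay within 2-fold either way for 24 of the 26, the exceptions being Mmp7 and Mmp12. The median difference was -0.02 against 0.01 over all genes, with 12 of 26 above 0.

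Mmp7 showed the largest difference in VP without passing. Control VP averaged 3.79 ± 0.94 (SD, n = 5) and HFD VP 4.79 ± 2.02 (SD, n = 5). The difference was 1.00 with an interval from -0.34 to 2.34 (limma, adjusted p 0.481), and the exact permutation p, two-sided, was 0.373. Without HFD VP 4 the difference was 0.28. Tmprss4 differed by -0.36 ± 0.23 (SE) with an interval from -0.84 to 0.12 (limma, adjusted p 0.475), Mmp24 by 0.23 ± 0.12 (adjusted p 0.356), Prss12 by -0.26 ± 0.15 (adjusted p 0.419) and Prss8 by 0.14 ± 0.08 (adjusted p 0.422). The smallest two-sided exact permutation p of any protease in VP was 0.111, and 0.00794 is the smallest that 5 against 5 arrays can give. Among the other protease and inhibitor lists 1 gene was called in VP, Serpinh1, a collagen chaperone of the serpin family, at -0.63 ± 0.12 (SE) (limma, adjusted p 0.0177).

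In DLP no protease was called either (limma, smallest adjusted p 0.892), none had an unadjusted p under 0.05, and 0.0% of all genes were called. Without the filter the counts were 0 of 83 proteases and 0.0055% of all genes. Intervals lay within 2-fold for 25 of 26, Mmp7 being the exception, at 0.14 with an interval from -1.28 to 1.56. That interval rests on the spread pooled over all 19 arrays and so carries the VP spread. The Mmp7 SD was 0.19 in control DLP and 0.09 in HFD DLP, against 0.94 in control VP and 2.02 in HFD VP. The smallest p-values belonged to Prss16 at 0.22 ± 0.11 (SE) (limma, adjusted p 0.892), Prss29 at -0.22 ± 0.13 (adjusted p 0.935), Klk1 at -0.26 ± 0.15 (adjusted p 0.951), Prss8 at 0.12 ± 0.09 (adjusted p 0.985) and Klk1b24 at -0.18 ± 0.15 (adjusted p 0.996). Prss53 was the 1 protease whose diet groups did not overlap, with all 4 HFD arrays below all 5 control arrays, where 1.13% of all genes did the same. Its difference was -0.21 ± 0.20 (SE) (limma, adjusted p 0.996), with 0.0159 as its two-sided exact permutation p, unadjusted for 104 such tests. A comparison of 5 with 4 arrays cannot give a smaller one. The SE of Prss53 likewise carries the VP spread. Its SD was 0.07 in control DLP and 0.11 in HFD DLP, against 0.26 in control VP and 0.57 in HFD VP.

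**Figure D5:**
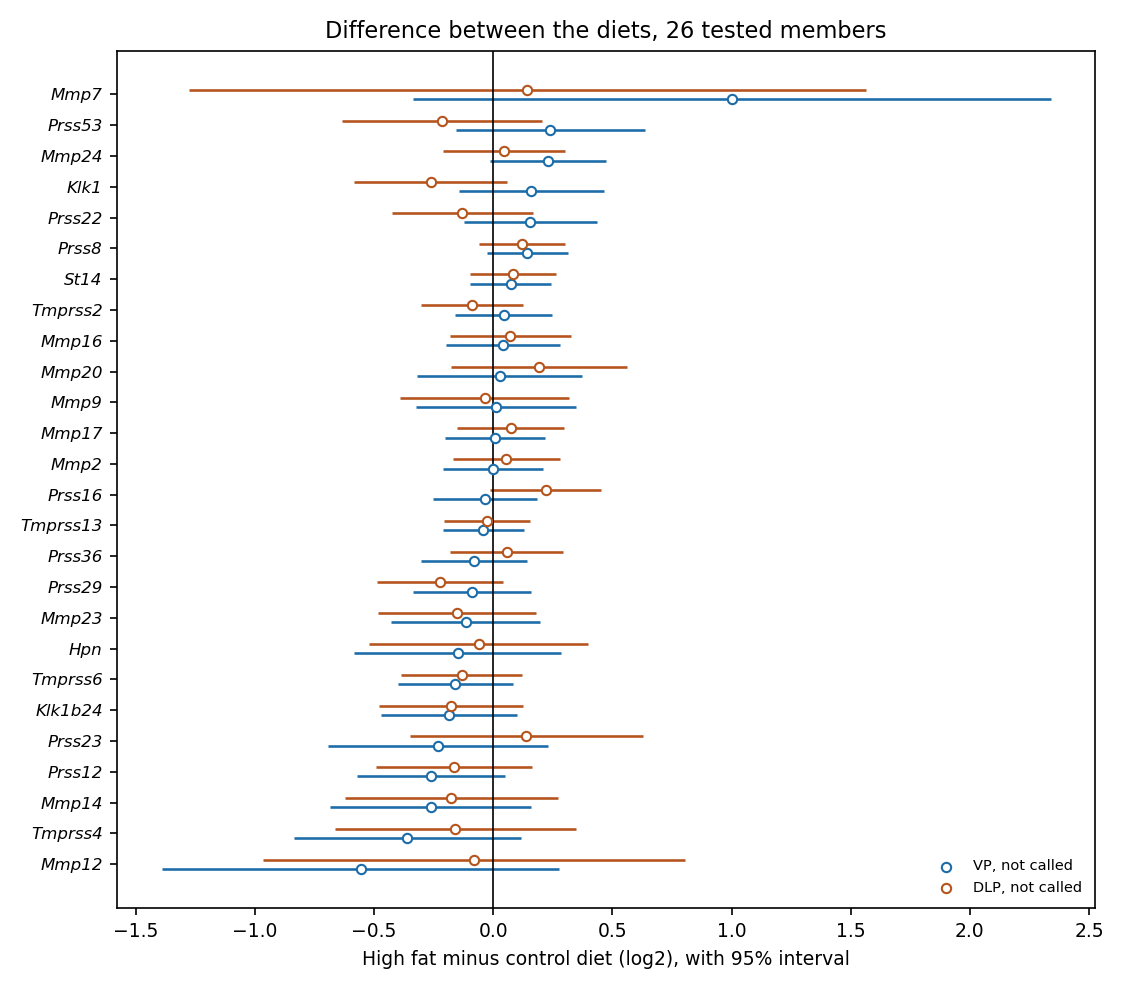
HFD minus control difference (horizontal axis, log2) of the 26 tested proteases with 95% intervals, in VP (blue) and DLP (orange), with open points for values that did not pass. All points but Mmp7 in VP, at 1.00, lie between -0.56 and 0.24.

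The test of whether the diet acted differently in the lobes called no protease (limma, smallest adjusted p 0.602), against 0.00853% of all genes, which is 1 gene. Intervals lay within 2-fold for 22 of 26. Klk1 had the smallest adjusted p, at -0.42. The 2 diet comparisons and this one use the same arrays as the lobe comparisons and are not independent of them.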

How the data were processed

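Total RNA of VP and DLP lobes was measured on 19 one-colour 3′ arrays, 1 sample each, grouped by the diet and lobe in their titles. The authors deposited a table of log10 values, normalized with MAS5 per the submitters' processing notes. The log base was inferred from hybridization controls, whose steps were 0.50 (bioB to bioC), 0.62 (bioC to bioD) and 0.99 (bioD to cre) against 0.52, 0.70 and 0.60 nominal. The offset, taken as 1, and the step that gave all arrays identical sorted values are not given in the sources used here. Every fold rests on the base, and p-values do not.

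Values were multiplied to log2 with no further normalization. Of 45101 probe sets, 64 controls were left out, 34945 had 1 symbol, 932 several and 9160 none. Symbols were updated through gene identifiers, which renamed 0 of the 83 proteases. A gene was kept when above the median of its array on at least 4 arrays, and was read from its passing probe set of highest mean, which gave 11727 genes. In proteases only the probe set of the selection rule could stand for the gene, so Prss44 was not tested although 2 of its other probe sets passed.

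limma 3.58.1 in R 4.3.3 fitted 4 group means to all 19 arrays (eBayes with a mean-dependent prior), with Benjamini-Hochberg adjustment over all genes and a two-sided threshold of 0.05. The fit was tested on simulated data. Single proteases were also compared by exact permutation. The proteases, lists, tests and alternatives were chosen with earlier results of these data known. Proteases named by rule were those called in a diet contrast or else the 5 smallest p-values, up to 12 non-overlapping per direction in each lobe contrast, the 12 with the highest group means, and St14, Hpn, Tmprss2, Klk1, Mmp2, Mmp7, Mmp9 and Mmp14. In the other lists up to 4 called genes with the largest change and 2 others were named. The remaining tested proteases and the neighbouring genes were named after their values were seen.

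Same-numbered arrays deviated together with correlations from -0.07 to 0.19 across lobes of control mice and 0.00 to 0.15 of HFD mice, from -0.11 to 0.46 between the diets in VP and from -0.16 to 0.17 in DLP. In VP, numbers 2 and 3 reached 0.46 and 0.38. No set of pairs was over 0.1 throughout, so the numbers were not taken as pairs, and whether VP arrays of equal number shared a batch was not tested. Protein sequences were not used here. Alternatives covered the offset, filter, probe sets, variance prior, array weights, lobe weights, replicate number, groups fitted alone, cyclic loess, threshold and single arrays left out. The number of arrays limits the precision.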

Additional observations from a re-analysis of the deposited data

Results flagged for a closer look

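Single arrays stood apart in 7 of 104 protease-by-group sets of 4 or 5 arrays by Dixon's test, which flags about 1 in 20 by chance. In control DLP, array 1 read 1.96 for Mmp12 against 0.89 to 1.20 on the others, and array 2 read 3.22 for Klk1 against 2.73 to 2.83. In HFD VP, array 3 read 2.08 for Mmp23 against 1.71 to 1.82 and 6.03 for Prss8 against 6.29 to 6.38, and array 5 read 2.76 for Prss16 against 2.31 to 2.44. HFD DLP 1 read 1.90 for Klk1b24 against 1.62 to 1.66. Control VP 5 read 6.61 for Tmprss2 against 6.87 to 6.94. The lobe calls of Klk1 on the control diet, of Prss8 and Klk1b24 on HFD and of Tmprss2 on the control diet passed limma's threshold with each of these arrays left out.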

How the results depend on the processing

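For 76 single-gene results, 32 or 33 alternative settings each gave 2474 values in all, of which 2408 kept their direction and side of the threshold, 45 lost a call, 13 gained one and 8 turned sign. With the filter at the 75th percentile only 9 proteases could be tested, and the lobe counts were 4 higher and 2 lower on each diet. The share of all genes called was not counted under this setting or the other alternatives, except without the filter. Those lobe counts therefore have no background beside them. The turned signs were all of uncalled differences near 0 on the control diet: Mmp14 (-0.08) gave 0.14 with the mean of probe sets, 0.006 without control VP 4 and HFD VP 3, and from -0.154 to 0.006 with single arrays left out (above 0 without control VP 4 or control DLP 3). Mmp2 (0.02) gave -0.082 with the mean of probe sets and from -0.054 to 0.073 with single arrays left out (below 0 without control VP 2, control DLP 2 or control DLP 4). With single arrays left out, the lobe counts ran from 8 to 10 higher and 6 to 8 lower on the control diet, and from 6 to 10 higher and 5 to 5 lower on HFD, with 6 higher without HFD DLP 4. No diet contrast called a protease in any setting. Anxa2 was -0.29 and Adam17 missed the threshold (limma, adjusted p 0.0875) with the mean of probe sets. Serpinb5 missed it without control VP 2 (limma, adjusted p 0.072).

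With the replicate number as a fixed block, though the numbers did not pair the arrays, 8 proteases were higher and 7 lower on the control diet and 8 and 6 on HFD. That block ended the calls of Prss12 on the control diet and Hpn on HFD, and that of F2rl2, and St14 passed on the control diet. With number and diet as a random block (correlation 0.044) the counts were those of the fit without it, 9 and 6, and 9 and 5. Proteases below the array median have differences that shrink with a larger offset, and depth has no counterpart on arrays beyond the signal itself.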

Other observations

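Within the 57 proteases that could not be tested, a fit without the filter called Prss27, a neighbour of Prss22 on chromosome 17, lower in DLP on both diets (-0.76 and -0.89, limma, adjusted p 0.0274 and 0.0168). Klk1b8 was higher (0.56) and Tmprss11a lower (-0.54) in DLP on HFD (limma, adjusted p 0.0308 and 0.0202). All these group means lay below the array median, so their sizes cannot be read.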
